A study of Mus musculus with 25 samples.

Results

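Egr1, Egr2, Egr3, Nr4a1, Klf2, Klf4, Klf6 and Myc encode 8 transcription factors. They were taken by gene symbol from the 43411 genes of the count table, and were described in microglia from 23 mice. Egr1, Egr2 and Egr3 are zinc-finger factors of the early growth response family, and Nr4a1 is an orphan nuclear receptor. Both families are classical immediate-early genes, which are transcribed within minutes of a stimulus without new protein synthesis. Klf2, Klf4 and Klf6 are Krüppel-like zinc-finger factors that bind GC-rich promoter sequence. In myeloid cells Klf2 and Klf4 are known as regulators of inflammatory gene expression and of the monocyte lineage. Myc is a basic helix-loop-helix factor that acts as a dimer with Max and drives growth and ribosome production.

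The cells were CD11b+ CD45med microglia, sorted from the brains of male and female mice at 3 months of age. The question of the study was how loss of Bin1 in neurons affects the microglia around them. All mice came from a cross of B6.129S6-Bin1tm2Gcp/J, which carries the floxed Bin1 allele, with FVB/N-Tg(Thy1-cre)1Vln/J, in which the Thy1 promoter drives Cre in forebrain excitatory neurons. The 10 homozygous mice (5 females and 5 males) were Bin1flox/flox Thy1-Cre+, labelled Homo-cKO. The 7 heterozygous mice (4 females and 3 males) were Bin1flox/wt Thy1-Cre+, labelled Het-cKO. The 6 WT mice (2 females and 4 males) were Bin1flox/wt Thy1-Cre-, so they too carried 1 floxed allele. Each mouse gave 1 library. Mice are named here by genotype, by F or M for sex and by a running number.

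Library totals were between 10812877 and 16734740 expected counts, and 15865 to 17432 genes had a count. Bin1, the targeted gene, was at a median of 689 CPM (counts per 1000000 of the library size after TMM scaling) in WT mice, 691 CPM in heterozygous mice and 469 CPM in homozygous mice, with 2 of the 10 homozygous mice inside the WT range. Bin1 was lower in homozygous mice, at a log2 fold change of -0.60 against WT (SE 0.117, adjusted p = 0.00173) and -0.53 against heterozygous mice (adjusted p = 0.00154). Cre is driven in neurons and these are sorted microglia, so this level does not check the genotype labels. Microglial markers (8 of 8 detected) summed to 57775 to 83607 CPM in WT mice and 47952 to 56079 CPM in homozygous mice. Neuronal markers summed to 5.94 to 31.2 CPM in WT mice and 1.38 to 5.43 CPM in homozygous mice. Markers of monocytes and neutrophils summed to 4.63 to 20.2 CPM in WT mice and 11.8 to 56.0 CPM in homozygous mice. In a bulk sample, fewer cells of a type and less RNA per cell cannot be told apart.

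Animal numbers in the sample titles split the mice in a way that follows genotype. All WT and heterozygous mice have numbers in the 02xx range, whereas homozygous F1, F2, F3, M1, M2 and M3 are in the 03xx range and homozygous F4, F5, M4 and M5 are in the 04xx range. Genotype and number range therefore cannot be told apart. Within the homozygous group, 4 libraries stood apart. Fos, the partner of Jun in the AP-1 complex and an immediate-early gene outside the 8, lay at 824 to 1459 CPM in F1, F2, M1 and M2, at 0.363 to 6.999 CPM in the other 6 homozygous mice and at 0.0677 to 1.73 CPM in WT mice. All 4 are in the 03xx range, and they include both sexes. Their library totals, 10812877 to 16734740, overlapped those of the other 6, at 12816678 to 16212614. Their mitochondrial share of counts, 0.220% to 0.313%, lay below that of the other 6, at 0.319% to 0.456%, and inside that of WT mice, at 0.173% to 0.411%. Their microglial markers (49839 to 55950 CPM) lay inside the range of the other 6 (47952 to 56079 CPM), but 3 other marker lists did not overlap between them. Markers of border macrophages summed to 2.13 to 7.27 CPM in the 4 and 10.2 to 19.5 CPM in the other 6, with Mrc1 listed at 0 in every mouse, and markers of astrocytes to 0.945 to 3.92 CPM and 4.07 to 9.33 CPM. Markers of endothelial cells, for the most part Pecam1, were higher in the 4, at 55.4 to 62.5 CPM against 36.8 to 52.6 CPM. The share of all genes that separates the 4 from the other 6 in this way was not counted. Of the astrocyte markers, Gja1 went the other way, at a median of 0.367 CPM in the 4 and 0.14 CPM in the other 6, and the rest were lower in the 4. The part of other cell types in the levels below was not tested. The fold changes of the factors against WT and against heterozygous mice by edgeR are therefore given with and without these 4 mice, a split chosen after the data were seen, whereas those by limma-voom and by sex rest on all mice. Brains were dissociated in the cold before sorting, and the time taken for each mouse was not given in the sources used here, so its part in these levels was not tested.

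Regions before the transcription starts of these genes were searched for binding motifs of stimulus-responsive factors. Stretches that hold them are shown for the genes with a window at hand, whether or not their level differed. Egr1, Egr3 and Myc had no window. RefSeq windows of 250 bases before to 50 bases after a start (build GRCm38.p6) were at hand for 5 of the 8 genes, namely Egr2, Klf2, Klf4, Klf6 and Nr4a1, with 5 windows for Egr2 and 1 for each of the others. On both strands, 5 motifs were searched. They were the CArG box of serum response factor, the half-site TGACG of the cyclic AMP response element, the EGR site GCGNGGGCG, the E-box CACGTG bound by Myc with Max, and the MEF2 box. Of all 32851 windows in the table, 1.63% held a CArG box, 20.8% the half-site, 5.55% the EGR site, 7.15% the E-box and 0.557% a MEF2 box. Positions count back from -1 at the base before the start, and capitals mark the motifs.
Egr2, chr10:67537793-67537822, + strand, start at 67537869: cagtCCATATATGGgcagcgaCGTCAcggg
Egr2, chr10:67537484-67537513, + strand, start at 67537566: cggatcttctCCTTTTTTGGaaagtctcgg
Klf2, chr8:72318812-72318963, + strand, start at 72319062: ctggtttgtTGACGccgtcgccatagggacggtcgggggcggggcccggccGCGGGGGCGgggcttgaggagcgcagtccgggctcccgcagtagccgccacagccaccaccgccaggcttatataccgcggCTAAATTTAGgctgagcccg
Klf4, chr4:55532642-55532717, - strand, start at 55532475: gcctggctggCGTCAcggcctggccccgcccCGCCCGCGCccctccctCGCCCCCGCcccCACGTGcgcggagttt
Klf6, chr13:5861436-5861461, + strand, start at 5861489: ccaagctggtCACGTGgggggagaag
Nr4a1, chr15:101266603-101266820, + strand, start at 101266846: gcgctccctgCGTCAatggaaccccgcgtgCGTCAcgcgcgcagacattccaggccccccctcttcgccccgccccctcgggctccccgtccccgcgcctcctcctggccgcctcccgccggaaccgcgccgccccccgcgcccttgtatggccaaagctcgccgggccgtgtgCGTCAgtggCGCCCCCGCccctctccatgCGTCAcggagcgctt

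Egr2 was the only 1 of the 5 genes with a CArG box, in 4 of its 5 windows, at -72 to -63 from the starts at 67537566 and 67537869. The windows of the starts at 67537869, 67537870 and 67537930 overlap and hold the same box, so these windows do not count separate boxes. The half-site stood in windows of 4 of the 5 genes, with 4 copies in the Nr4a1 window. The EGR site and the E-box each stood in windows of 3 of the 5. Klf2 held an EGR site at -199 to -191 and a MEF2 box at -118 to -109. Klf4 held 2 EGR sites on the opposite strand, the nearer at -194 to -186, followed by an E-box at -182 to -177. In Klf6 the E-box at -43 to -38 was the one motif found. None of the matches printed overlapped another. A match is a run of letters and not evidence of binding.

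Egr1 (ENSMUSG00000038418.7, chromosome 18 from 34859823 to 34864984, + strand, GRCm38) differed most between the genotypes. It links growth factor and stress signals to transcription, and its gene lies 2.42 Mb from Bin1 on the same chromosome. In WT mice Egr1 lay at 6.031 to 10.96 CPM with a median of 8.48, and in heterozygous mice at 6.003 to 11.96 CPM with a median of 9.49. In homozygous mice the level was 3490 CPM in F1, 2965 in M1, 2833 in M2 and 1577 in F2, and between 12.7 and 22.9 CPM in the other 6. All 10 homozygous mice were thus above all 13 other mice, a separation that 0.403% of the 12908 genes tested shared in this direction. The fitted log2 fold change of homozygous against WT mice was 7.02 with a standard error of 1.44 and an adjusted p of 0.00253, by the quasi-likelihood test of edgeR and Benjamini-Hochberg over all genes tested. Without the 4 mice of high Fos it was 0.88 (standard error 0.196, adjusted p = 0.00854), so the size of the difference rested on those mice while its direction did not. With the 4 mice of the 04xx range alone it was 0.62 (standard error 0.194, adjusted p = 0.0608) and Egr1 was not called. Limma-voom, which works on log values, gave 3.84 (standard error 2.22, adjusted p = 0.276) with all mice.

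Egr2 (ENSMUSG00000037868.13, chromosome 10 from 67535475 to 67542188, + strand), a factor best known from Schwann cell myelination and macrophage activation, rose in homozygous mice with a narrower spread. It lay at 1.76 to 4.33 CPM in WT mice (median 3.10), at 1.195 to 6.466 CPM in heterozygous mice (median 3.26) and at 4.11 to 23.8 CPM in homozygous mice (median 7.99). Homozygous F1, M1 and M2 had 23.8, 21.8 and 20.4 CPM, F2 had 9.49 CPM, and the other 6 had 4.11 to 8.27 CPM. Of the 10 homozygous mice, 9 were above every WT mouse and 7 above every other mouse. The log2 fold change against WT was 1.96 (standard error 0.416, adjusted p = 0.00332). Without the 4 mice it was 1.05 (standard error 0.334, adjusted p = 0.0547), and 5 of the remaining 6 mice were above all WT mice.

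Egr3 (ENSMUSG00000033730.3, chromosome 14 from 70077203 to 70082614, + strand), a relative of Egr1 and Egr2 that is prominent in lymphocytes and neurons, was too low to test. Its counts summed to 15 over the 6 WT mice, 15 over the 7 heterozygous mice and 51 over the 10 homozygous mice. The levels were 0 to 0.368 CPM, 0 to 0.417 CPM and 0 to 1.24 CPM, with 1, 2 and 1 mice at 0. Homozygous M2 and F1 were highest at 1.24 and 0.678 CPM, but F2, which had high Fos, was at 0.

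Nr4a1 (ENSMUSG00000023034.6, chromosome 15 from 101254269 to 101274795, + strand), a receptor that restrains inflammatory responses of macrophages, did not pass the test. It lay at 1.42 to 2.70 CPM in WT mice (median 1.96), at 0.332 to 3.34 CPM in heterozygous mice (median 2.30) and at 1.04 to 9.19 CPM in homozygous mice (median 2.87). The order of the homozygous mice differed from that of Egr1. The 4 highest were F1 at 9.19, F4 at 7.63, M4 at 6.07 and M1 at 5.57 CPM, of which F4 and M4 are in the 04xx range and had low Fos. F2 was at 1.77 CPM and M5 at 1.04 CPM, the last below every WT mouse. The log2 fold change against WT was 0.97 (standard error 0.441, adjusted p = 0.152), and it was 0.79 (standard error 0.470, adjusted p = 0.334) without the 4 mice.

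Klf2 (ENSMUSG00000055148.7, chromosome 8 from 72319033 to 72321656, + strand) is a factor associated with quiescence in leukocytes and endothelial cells. It lay at 4.05 to 9.09 CPM in WT mice (median 5.77) and at 4.23 to 10.9 CPM in heterozygous mice (median 7.67). In homozygous mice it was 141 CPM in F1, 91.0 in M1, 68.6 in M2 and 29.6 in F2, and 1.48 to 7.07 CPM in the other 6. The 4 mice were above all others, whereas the other 6 lay inside the WT range or, in M3 and M5, below every WT mouse. The log2 fold change was 2.46 ± 0.767 (SE; adjusted p = 0.0355). This call was lost when homozygous F1, M1 or M2 or any 1 of the 6 WT mice was left out, with adjusted p between 0.0557 and 0.0809 in those 9 fits. It changed sign to -0.49 (standard error 0.305, adjusted p = 0.370) without the 4 mice and to -0.55 (standard error 0.351, adjusted p = 0.404) with the 4 mice of the 04xx range alone. Klf2 is also expressed by endothelial cells, whose markers, higher in the 4 mice than in the other 6, summed to 44.5 to 83.3 CPM in WT mice. Most of this sum was Pecam1, with medians of 47.2 CPM in the 4 mice and 31.7 CPM in the other 6. Kdr was at 9.97 and 8.31 CPM, and the medians of Cdh5 and Flt1 were 1.33 CPM or lower. Cldn5 and Tek of the 6 markers were listed at 0 in every mouse, which can be a failed estimate.

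Klf4 (ENSMUSG00000003032.8, chromosome 4 from 55527143 to 55532466, - strand), a factor of monocyte differentiation, was among the lowest of the 8. Its levels were 0.271 to 1.14 CPM in WT mice (median 0.966), 0.667 to 3.66 CPM in heterozygous mice (median 2.06) and 0.471 to 13.5 CPM in homozygous mice (median 2.04). The 4 highest were again F1 at 13.5, M2 at 10.2, M1 at 5.39 and F2 at 4.79 CPM, and the other 6 lay at 0.471 to 2.12 CPM, inside the heterozygous range apart from F4 and M3, which were lower. The log2 fold change against WT was 2.39 (standard error 0.658, adjusted p = 0.0178), and it was 0.79 (standard error 0.509, adjusted p = 0.387) without the 4 mice.

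Klf6 (ENSMUSG00000000078.6, chromosome 13 from 5861482 to 5870394, + strand), a factor of inflammatory activation in macrophages, was the most abundant of the 8 in WT and heterozygous mice and had the smallest fold change of the 7 tested. It lay at 143 to 193 CPM in WT mice (median 165), at 138 to 190 CPM in heterozygous mice (median 152) and at 163 to 314 CPM in homozygous mice (median 191). F1, M1, M2 and F2 had 314, 279, 255 and 234 CPM, above all WT and heterozygous mice, and the other 6 had 163 to 199 CPM. Of these 6, M3 at 199 CPM was also above all WT and heterozygous mice. The log2 fold change against WT was 0.37 (standard error 0.130, adjusted p = 0.0602), and it was 0.09 (standard error 0.0815, adjusted p = 0.559) without the 4 mice.

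Myc (ENSMUSG00000022346.12, chromosome 15 from 61985391 to 61990374, + strand) was higher in homozygous mice of both number ranges. It lay at 39.0 to 74.5 CPM in WT mice (median 51.2), at 41.3 to 59.9 CPM in heterozygous mice (median 49.7) and at 44.6 to 128 CPM in homozygous mice (median 91.6). The highest were F1 at 128, M4 at 124, M2 at 113 and M1 at 101 CPM, and M4 is a mouse of the 04xx range with low Fos. Of the 10 homozygous mice, 7 were above every WT and heterozygous mouse, 3 of them in the 04xx range and the others the 4 of high Fos. F3 at 74.3 CPM and M3 at 44.6 CPM, of the 03xx range without high Fos, lay inside the WT range. So did M5 of the 04xx range at 70.0 CPM, and M3 was below the WT median. The log2 fold change against WT was 0.74 (standard error 0.166, adjusted p = 0.00495). With the 4 mice of the 04xx range alone it was 0.73 (standard error 0.156, adjusted p = 0.00814), and without the 4 mice of high Fos it was 0.54 (standard error 0.171, adjusted p = 0.0517).

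**Figure D1:**
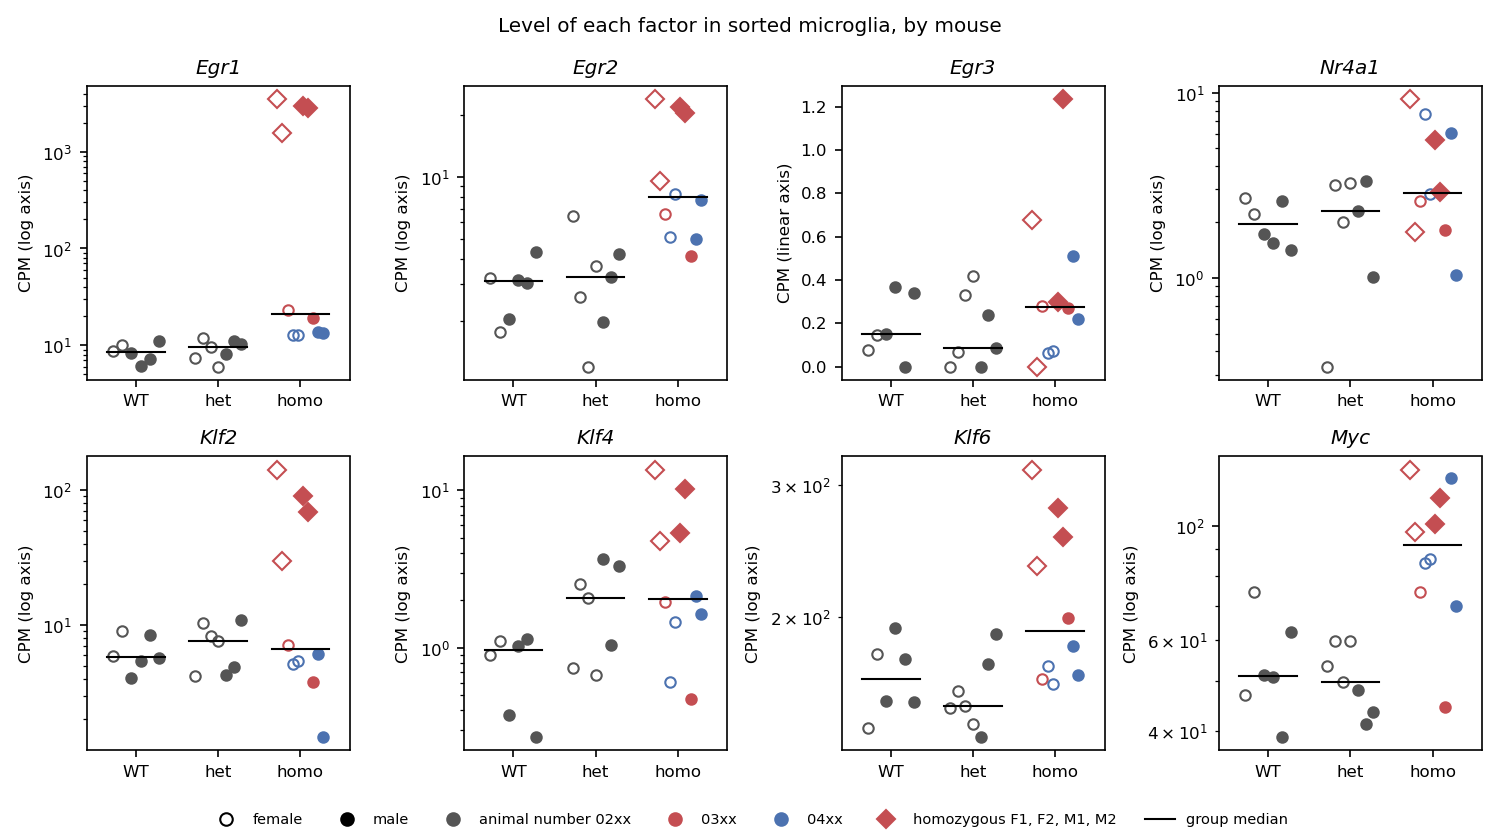
CPM of each factor in every mouse by genotype, on a log axis except for Egr3, with females as open and males as filled symbols, the group median as a bar, colours for the animal-number range and diamonds for homozygous F1, F2, M1 and M2. The 4 diamonds lie above all other mice for Egr1, Egr2, Klf2, Klf4 and Klf6, and mix with the other homozygous mice for Nr4a1 and Myc. These 4 mice were set apart by Fos after the data were seen. The share of all genes that separates them in this way was not counted, so the separation is a description and not a trait particular to these factors.

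Of the 7 factors tested, 5 were called higher in homozygous than in WT mice (past both thresholds, an adjusted p under 0.05 and a change of over 1.5-fold), namely Egr1, Egr2, Klf2, Klf4 and Myc, and none was called lower. Of all 12908 genes tested, 1.65% were called higher. The median log2 fold change was 1.95 over the 7 factors and 0.0116 over all genes tested, and that of the factors was 0.787 without the 4 mice of high Fos and 0.733 with the 04xx mice alone. With the 6 homozygous mice of the 03xx range alone the same 5 were called, against 1.74% of genes. With the 4 mice of the 04xx range alone only Myc was called, against 1.18% of genes. Without the 4 mice of high Fos only Egr1 was called, against 1.15% of genes. Limma-voom called Egr2 and Myc, against 1.31% of genes. The study lists Egr2 and Myc among its differentially expressed genes from these same mice, so their direction here is not independent evidence.

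**Figure D2:**
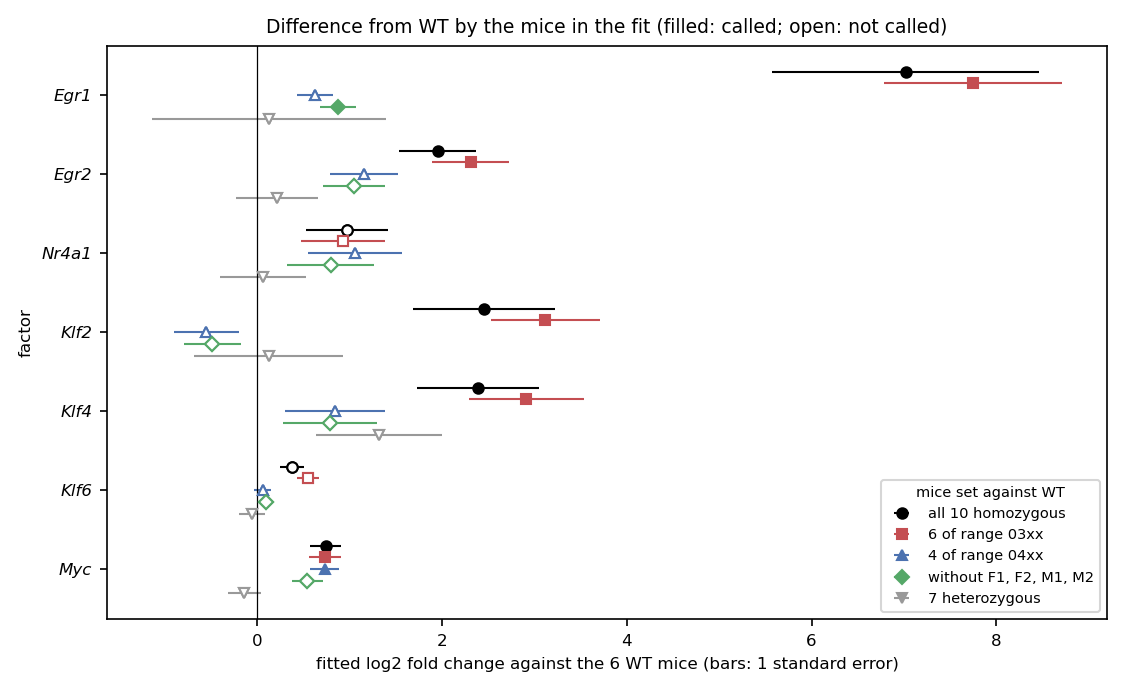
Fitted log2 fold change against the 6 WT mice for the 7 factors tested, with bars of 1 standard error, filled symbols for calls and a symbol for each set of mice compared. Egr1 moves from 7.02 to 0.88 and Klf2 from 2.46 to -0.49 when F1, F2, M1 and M2 are left out, whereas Myc stays at 0.73 with the 04xx mice alone.

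Against heterozygous mice, which share the Cre transgene with the homozygous mice, 4 of the 7 factors were called higher, with 2.32% of all genes called higher. This comparison shares the homozygous mice with the previous one. The log2 fold changes were 6.89 for Egr1 (standard error 1.33, adjusted p = 0.000843), 1.74 for Egr2 (standard error 0.387, adjusted p = 0.00250), 2.33 for Klf2 (standard error 0.714, adjusted p = 0.0207) and 0.88 for Myc (standard error 0.159, adjusted p = 0.000461). Klf6 passed the p threshold but not the fold threshold, at 0.42 (standard error 0.123, adjusted p = 0.0150). Klf4 was at 1.07 (standard error 0.568, adjusted p = 0.178) and Nr4a1 at 0.91 (standard error 0.413, adjusted p = 0.113). Without the 4 mice of high Fos, Egr1 at 0.78 (adjusted p = 0.00809) and Myc at 0.69 (adjusted p = 0.00778) were called, against 1.66% of genes. Egr2 was then at 0.88 (adjusted p = 0.0613), Nr4a1 at 0.73 (adjusted p = 0.285) and Klf6 at 0.14 (adjusted p = 0.252). Klf2 and Klf4 changed sign, to -0.57 (adjusted p = 0.196) and -0.54 (adjusted p = 0.478). With the 04xx mice alone Myc was called at 0.87 (adjusted p = 0.00124), against 1.78% of genes, and Klf2 and Klf4 were at -0.65 (adjusted p = 0.226) and -0.50 (adjusted p = 0.590). With the 03xx mice alone 6 factors were called, Klf4 at 1.59 (adjusted p = 0.0454) and Klf6 at 0.60 (adjusted p = 0.00161) besides the 4, against 2.38% of genes. Limma-voom called Egr2 and Myc with all mice, against 1.96% of genes.

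No factor was called between heterozygous and WT mice, where 0% of the genes tested were called by edgeR, with 998 of 12908 genes at an unadjusted p under 0.05. DESeq2 and limma-voom likewise called 0 genes past both thresholds. The log2 fold changes lay between -0.14 for Myc (standard error 0.179) and 0.22 for Egr2 (standard error 0.443) in 6 of the 7 factors, and Klf4 was at 1.32 (standard error 0.678, adjusted p = 0.670). The spread in this fit is shared with the homozygous mice. In a fit of the 13 WT and heterozygous mice alone the log2 fold change of Egr1 was 0.11 with a standard error of 0.191, against 1.26 with all mice, and that of Klf4 was 1.33 (standard error 0.479, adjusted p = 0.504). In Klf4, 4 heterozygous mice (F2, F3, M1 and M4) were above every WT mouse, at 2.06 to 3.66 CPM.

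Within the homozygous mice, the 6 of the 03xx range and the 4 of the 04xx range were compared, since the number range is a label and not a measurement. No factor was called by edgeR's quasi-likelihood test, against 0.00805% of the 12422 genes tested (1 gene), and 1195 genes were at an unadjusted p under 0.05. The log2 fold changes were 7.12 for Egr1 (standard error 1.48, adjusted p = 0.156), 3.65 for Klf2 (standard error 0.939, adjusted p = 0.260), 2.07 for Klf4 (standard error 0.751, adjusted p = 0.433), 1.14 for Egr2 (standard error 0.463, adjusted p = 0.469) and 0.50 for Klf6 (standard error 0.151, adjusted p = 0.337). Myc at 0.03 (standard error 0.249) and Nr4a1 at -0.13 (standard error 0.568) were close to 0. DESeq2 called Egr1 and Klf2 higher in the 03xx mice, against 0.484% of genes. The 6 mice of the 03xx range were not uniform. F3 and M3 had Egr1 at 22.9 and 18.9 CPM and Klf2 at 7.07 and 3.77 CPM. When either was left out Egr1 was called by edgeR, with adjusted p = 0.0278 without F3 and 0.0297 without M3. The genes called in either direction then rose from 1 to 38 of 12299 without F3 and to 22 of 12317 without M3.

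**Figure D3:**
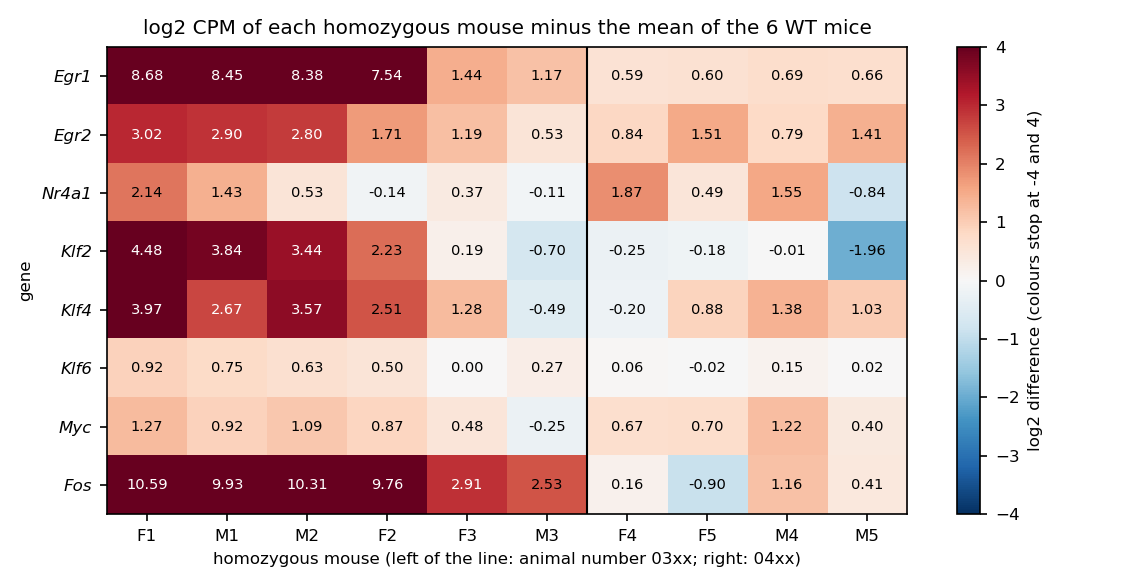
Log2 CPM of each homozygous mouse minus the mean log2 CPM of the 6 WT mice, for the 7 factors tested and Fos, with mice of the 03xx range left of the line and those of the 04xx range right of it. Egr1 was 7.54 to 8.68 higher in F1, M1, M2 and F2 and 0.59 to 1.44 higher in the other 6, and Klf2 in M5 was 1.96 lower.

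In single homozygous mice, the differences from the WT mean in log2 CPM followed 2 patterns. Egr1 was higher by 7.54 to 8.68 in the 4 mice of high Fos, by 1.44 and 1.17 in F3 and M3 and by 0.59 to 0.69 in the 4 mice of the 04xx range, against a WT standard deviation of 0.31. Klf2 was higher by 2.23 to 4.48 in the 4 mice and between -1.96 and 0.19 in the other 6, against a WT standard deviation of 0.42. Myc did not follow this order, with 0.87 to 1.27 in the 4 mice, 1.22 in M4, 0.40 to 0.70 in F4, F5 and M5, 0.48 in F3 and -0.25 in M3, against a WT standard deviation of 0.32. Egr2 was higher in all 10, by 0.53 to 3.02, against a WT standard deviation of 0.45.

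Over the 10 homozygous mice, Spearman correlations of log2 CPM with Egr1 were 0.98 for Fos, 0.87 for Klf2, 0.84 for Klf4, 0.83 for Klf6, 0.71 for Egr2, 0.55 for Myc and 0.19 for Nr4a1. Klf2 and Klf4 had 0.90 with each other. Over the 13 WT and heterozygous mice the correlations with Egr1 were between -0.04 for Egr2 and 0.33 for Klf2. These are descriptions, since the 4 mice of high Fos set the upper ranks in the homozygous group, and low counts of Klf4, Nr4a1 and Egr2 add counting noise.

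Over all 23 mice, Prkar1a at 0.87 and Zfp36 at 0.86 were among the genes whose log2 CPM was most like that of Egr1 by Spearman correlation. For Egr2 the 3 most alike were Zc3h12a and Rnf138 at 0.87 and Cnot7 at 0.85. For Myc they were Socs3 at 0.93, Tnf at 0.87 and Trib1 at 0.86, of which Socs3 is a feedback inhibitor of cytokine signalling and Tnf an inflammatory cytokine. For Klf6 they were Aasdhppt at 0.92, Crlf3 at 0.84 and Ppp1r21 at 0.82, and for Klf4 Stip1 and Gm12696 at 0.85 and Cacnb1 at 0.80. Klf2 had Syk at 0.79, Cnot3 at 0.77 and Arhgap12 at 0.76, and Nr4a1 had Plcxd1 at 0.79 and Gdap2 and Rcan1 at 0.73. No gene was named for more than 1 factor. These are the largest values over all genes tested and over mice of 3 genotypes, so a difference shared by the homozygous mice can raise them. Egr1 and Egr2 had 0.74 with each other over all 23 mice and -0.04 over the 13 WT and heterozygous mice. How large the highest values would be by chance was not tested.

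Levels between the 8 genes can be compared only per length, here as CPM per kilobase of annotated exon. In WT mice the order was Klf6 at 37.9 ± 4.35 (SD, n = 6), Myc at 19.9 ± 4.59, Klf2 at 3.48 ± 1.05, Egr1 at 1.90 ± 0.401, Egr2 at 0.861 ± 0.273, Nr4a1 at 0.578 ± 0.156, Klf4 at 0.263 ± 0.125 and Egr3 at 0.0408 ± 0.0330. The ranges of Klf2 and Egr1 overlapped, as did those of Egr2 and Nr4a1, and the other neighbours in the order did not overlap. In homozygous mice the mean of Egr1, 244 CPM per kilobase, exceeded that of Klf6, 48.6, but the median of Egr1, 4.66, stayed below the median of Klf6, 43.6.

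A difference between the sexes was not detectable. In a fit of the 6 combinations of genotype and sex, no factor passed the test that the difference between homozygous and WT mice differed between females and males, where 0% of genes passed by edgeR and by limma-voom, with 644 and 688 genes at an unadjusted p under 0.05. The interaction estimates had standard errors of 0.275 for Klf6 to 2.38 for Egr1, so this test of 2 WT females could show only large differences. In males Egr1 at 7.17 (adjusted p = 0.0250), Egr2 at 1.90 (adjusted p = 0.0380) and Myc at 0.83 (adjusted p = 0.0267) were called higher, against 0.976% of genes. In females no factor was called, against 0.0930% of genes, with log2 fold changes of 6.78 for Egr1 (standard error 2.54), 2.09 for Egr2 (standard error 0.728) and 0.63 for Myc (standard error 0.276).

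Other genes of the same pathways were counted in lists, at adjusted p below 0.05 for homozygous against WT mice, which 5.66% of all genes tested passed in the higher direction and 7.09% in the lower. Among 17 AP-1 and other immediate-early genes, 12 were tested and 10 rose, with a median log2 fold change of 2.39 over the 12. Of the 5 not tested, Ier5 and Btg2 were listed at 0 in every mouse, and whether that is a failed estimate cannot be told from the table. Fos rose by 8.75 (standard error 1.84, adjusted p = 0.00299), Ier2 by 4.45 (adjusted p = 0.00319), Dusp1, a phosphatase of MAP kinases, by 5.89 (adjusted p = 0.00393) and Atf3, a stress-responsive factor, by 0.94 (adjusted p = 0.00365). Dusp6, a phosphatase specific for ERK, was one of the most abundant, at 749 ± 152 CPM in WT mice and 951 ± 231 CPM in homozygous mice (SD, n = 6 and 10, adjusted p = 0.153). Without the 4 mice of high Fos 4 of the 12 rose, namely Jun, Atf3, Ier2 and Zfp36, against 3.51% of genes, and the median was 0.56. With the 04xx mice alone only Atf3 rose, by 0.59 (adjusted p = 0.00965), against 2.57% of genes.

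Close relatives of the 8 were counted in the same way, beside 5.66% of all genes tested that passed in the higher direction. Of the Egr corepressors, Nab1 was at 0.24 (adjusted p = 0.124) and Nab2 at 0.18 (adjusted p = 0.279), and Nr4a2 and Nr4a3 were too low to test. Of 18 other Klf and Sp factors 13 were tested and 1 passed, Sp2, which rose by 0.40 (adjusted p = 0.00367). Klf3, the most abundant of them at 334 ± 19.7 CPM in WT mice and 345 ± 14.1 CPM in homozygous mice (SD, n = 6 and 10), was at 0.05 (adjusted p = 0.552). The median log2 fold change of the 13 was 0.05.

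In the Myc network, 10 of 11 genes were tested. Of these 1 passed higher and 1 lower, against 5.66% and 7.09% of all genes tested. Max, the obligate partner of Myc, rose from 16.9 ± 7.19 CPM in WT mice to 32.1 ± 8.89 CPM in homozygous mice (SD, n = 6 and 10), or by 0.93 ± 0.247 in log2 (standard error, adjusted p = 0.0141). Unlike that of Egr1, this difference was as large without the 4 mice of high Fos, at 1.04 (adjusted p = 0.0130), and with the 04xx mice alone, at 1.00 (adjusted p = 0.0358). Mxd4, which competes with Myc for Max, fell by 0.25 on the log2 scale (adjusted p = 0.0395), but was at -0.18 (adjusted p = 0.241) without the 4 mice. The other 8 did not pass, and the median over the 10 was 0.03. Of 18 growth genes known as Myc targets all were tested and 1 passed, against 5.66% of all genes in the higher direction. It was Gnl3, a nucleolar factor, which rose by 0.50 (adjusted p = 0.00335) and by 0.58 (adjusted p = 0.00586) without the 4 mice. Ldha and Ncl, the most abundant of these genes, were at 0.04 (adjusted p = 0.735) and -0.01 (adjusted p = 0.933), and the median of the 18 was 0.10.

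Among 16 upstream regulators, 13 were tested and 2 passed, both higher, against 5.66% of all genes in that direction. Creb1, which binds cyclic AMP response elements, rose by 0.32 (adjusted p = 0.00499), and Mapk7, the kinase ERK5 that acts through MEF2 factors, rose by 0.37 (adjusted p = 0.0114). Without the 4 mice Mapk7 was at 0.39 (adjusted p = 0.0376) and Creb1 at 0.27 (adjusted p = 0.0516). Mef2c and Mef2a, the most abundant, were at -0.11 (adjusted p = 0.140) and 0.16 (adjusted p = 0.119). Against heterozygous mice, where 11.1% of genes passed in the higher direction, 11 of the 12 immediate-early genes rose, 3 of 13 Klf and Sp factors, 2 of 10 genes of the Myc network, 3 of 18 growth genes and 2 of 13 upstream regulators. Of the 2 Egr corepressors Nab2 rose, by 0.43 (adjusted p = 0.0034). In the lower direction, which 11.7% of genes passed, 2 genes of the Myc network and 1 upstream regulator fell. They were Mxd4 at -0.51 (adjusted p = 8.96e-05), Mga, a Max-binding repressor named after its value was seen, at -0.43 (adjusted p = 0.0108), and Mef2c at -0.19 (adjusted p = 0.00446). These list counts against heterozygous mice include the 4 mice of high Fos.

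**Figure D4:**
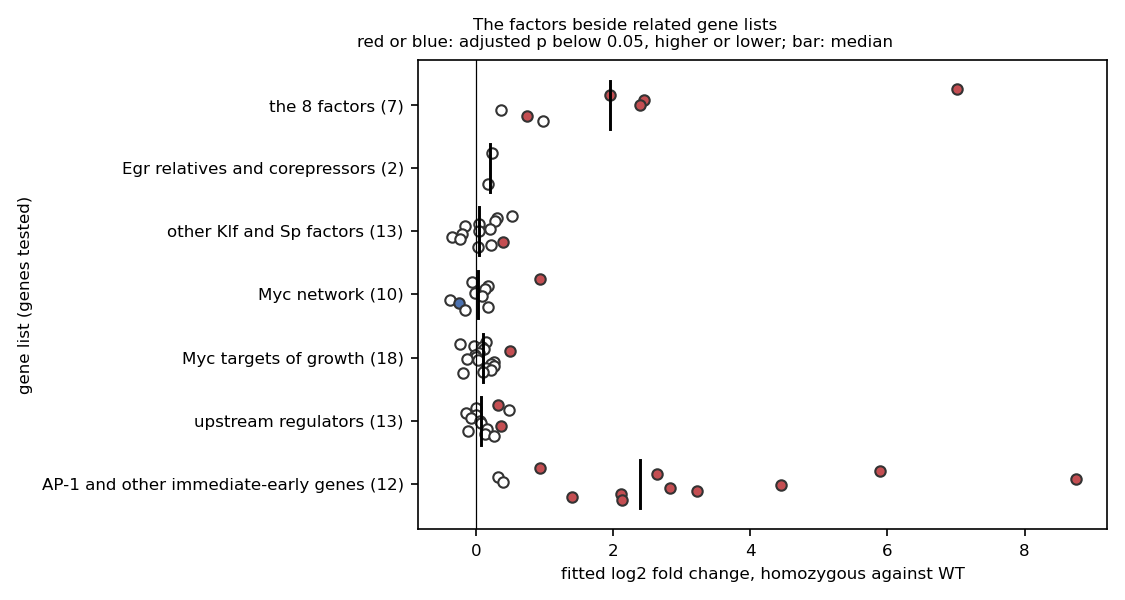
Fitted log2 fold change of homozygous against WT mice for each gene tested of the 8 factors and of 6 related lists, with the list median as a bar and red or blue for genes past an adjusted p of 0.05 that were higher or lower. The medians of the 8 factors (1.95) and of the immediate-early genes (2.39) lie apart from the medians of the other lists, which are between 0.03 and 0.21. Factors and lists were chosen with earlier results of these data known.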

How the data were processed

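Microglia were profiled by RNA-seq, 1 library per mouse, from unstranded cDNA. The authors aligned reads to mm10 with the OmicSoft aligner and an Ensembl gene model, and deposited expected counts per gene estimated with RSEM. They removed 1 WT female and 1 heterozygous male of poor quality, which were not analysed here. Gene symbols, positions and exon lengths came from GENCODE M21 (42929 of 43411 identifiers matched). Expected counts were rounded and analysed in R 4.3.3 with edgeR 4.0.16 (filterByExpr, TMM, quasi-likelihood test, Benjamini-Hochberg adjustment) over 3 genotypes with sex as a term. A gene was called at an adjusted p below 0.05 with a fold change above 1.5. CPM use TMM library sizes, log2 CPM a prior count of 2. Alternatives were DESeq2 1.42.0, limma-voom 3.58.1 and other filters, scalings and sets of mice. Standard errors of edgeR fits were derived from the test statistic, as the absolute log2 fold change divided by the square root of the quasi-likelihood F. Intervals and standard errors reflect the spread between these mice, which the fits moderate over genes. Members, lists and markers were chosen with earlier results of these data known. The genes named are the 8 factors, at most 4 per list of smallest p among those past the threshold with the 2 most abundant, and the 3 most alike per factor, of which 1 is not reported here.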

Additional observations from a re-analysis of the deposited data

How the results depend on the processing

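Of the 5 factors called higher in homozygous than in WT mice, 4 or 5 were called in 9 of 12 alternatives and in all 23 fits that left out 1 mouse (lowest 4, highest 5). The count was 2 by limma-voom, 1 with the 04xx mice alone and 1 without homozygous F1, F2, M1 and M2, an alternative chosen after the data were seen. Against heterozygous mice the 4 calls became 2 by limma-voom, 1 with the 04xx mice alone and 2 without those 4 mice, and rose to 6 with the 03xx mice alone and to 5 with no fold threshold (3 to 4 with 1 mouse left out). Between the number ranges 0 factors were called by edgeR and 2 by DESeq2 (0 to 1 with 1 mouse left out). Klf2 was reversed with the 04xx mice alone (-0.55) and without the 4 mice (-0.49), and was not called with robust edgeR (adjusted p = 0.0727) or with the 2 groups alone (0.0788). Over its 11 alternatives the adjusted p of Klf2 ranged from 0.00227 to 0.479, that of Egr1 from 2.94e-09 to 0.276, that of Egr2 from 1.60e-05 to 0.0672, that of Klf4 from 0.000917 to 0.412 and that of Myc from 0.000201 to 0.0517. No factor was called between heterozygous and WT mice or for sex in any alternative. No paired analysis was possible because every mouse has an animal number of its own.

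Depth limited Egr3, which had at most 17 counts in a library of at least 10812877, and Klf4 in WT mice, with 65 counts over 6 mice. With 2 WT females the test by sex was weak. Number range and genotype cannot be told apart, and nothing in the sources used here links number range to a day of sorting or sequencing. The causes of the differences between alternatives were not tested.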
